A study of Homo sapiens with 9 samples.

Results

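POLR2L is the gene of a small subunit that RNA polymerases I, II and III have in common. The gene was selected on the deposited counts of these libraries, so its own levels and differences are given as a description without a test. The 159067 rows of the count table were summed by gene symbol where a symbol was found, and 45011 rows without one were kept as single transcripts. Together these made 80013 entries, called genes from here on. Of them 5564 had 1 count or more, and the 609 whose mean count was 10 or higher were fitted together. Among the 609, 328 had a symbol and 1 row, 180 had a symbol and 2 or more rows, and the others were transcripts without a symbol. POLR2L is 1 of these 609 and counts in the shares given for all genes, but no p-value of its own is used. A single row, the RefSeq transcript NM_021128.5, belonged to POLR2L, so the sum over its transcripts was that row.

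U-87 is an established human glioblastoma line, and its RNA was read from transcript 3′ ends. All cultures were kept for 24 h, either untreated or with evernic acid (EA, a lichen metabolite), temozolomide (TMZ, a DNA alkylating drug) or both. The untreated controls gave 3 libraries. EA alone was used at 30 µM (EA30) and 45 µM (EA45), and TMZ alone at 600 µM (TMZ600). The combinations were 35 µM EA with 320 µM TMZ (EA35TMZ320), 20 µM EA with 380 µM TMZ (EA20TMZ380) and 20 µM EA with 580 µM TMZ (EA20TMZ580). Each of these 6 treatments had 1 library, so no treatment had a replicate. The sample labels do not say whether the 3 controls were separate cultures, and p-values measure only the spread between these libraries, which may be technical. The labelled cell type could be checked only in part. Of 13 astrocyte and glioma markers 11 were listed at 0 in all libraries, GFAP, VIM and SOX2 among them. The most abundant marker was NES, the gene of nestin, with 152, 169 and 174 counts in the controls against 15 to 56 counts after treatment. The counts of the 13 markers summed to 152, 169 and 176 in the controls. The sums after treatment were 56 in EA30, 54 in TMZ600, 44 in EA20TMZ380, 22 in EA35TMZ320, 20 in EA20TMZ580 and 15 in EA45. Apart from 2 counts of TNC in control 3, these sums were the raw counts of NES alone. NES was lower in every treated library than in the controls, and its part in the POLR2L values was not tested. The 5 neuronal and 4 epithelial markers were all listed at 0. A single gene was counted in each of the lists of 5 immune markers (CD3E, 2 counts in all) and 5 fibroblast markers (PDGFRB, 9 counts in all).

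RNA polymerase I makes the large ribosomal RNA precursor, polymerase II makes messenger RNA and many noncoding RNAs, and polymerase III makes transfer RNA and other short RNAs. A set of small subunits, among them the POLR2L product, is built into all these enzymes, while the large catalytic subunits differ. The POLR2L product is the human counterpart of yeast Rpb10, a zinc-binding protein needed for assembly of the polymerase core.

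In the GRCh38 build POLR2L lies on the minus strand at chr11:839721-842529 by RefSeq. The transcript POLR2L-201 of the GENCODE annotation has 2 exons, 892 bases and a coding region for 67 amino acids, followed by a 3′ UTR of 651 bases. Since the libraries were read from 3′ ends, the stretches around hexamers known as polyadenylation signals are shown, with the hexamer in capitals. They were read from the GENCODE transcript, 5′ to 3′ on the transcript strand.
POLR2L-201 at chr11:840207-840236, minus strand: aaggaaccatccAGTAAAggtctttcagaa
POLR2L-201 at chr11:839797-839826, minus strand: acaacaaaatttAATAAAttagctgggcac
Both stretches lie in the last exon, in the 3′ UTR. The AGTAAA hexamer ended 498 bases before the end of the transcript and the AATAAA hexamer 88 bases before it. The search covered AATAAA with its variants AGTAAA and ATTAAA on the transcript strand alone, and the last was not in the 3′ UTR. Of 65389 protein-coding GENCODE transcripts at least as long as this UTR, 54.7% held AATAAA, 17.6% AGTAAA and 30.4% ATTAAA in their last 651 bases. A match is a description, and the count table does not say which 3′ end was read. The last 111 bases of the POLR2L-201 exons, which include AATAAA, lie inside the gene CD151 of the opposite strand in GENCODE. GENCODE also lists POLR2L-202, whose last exon, at chr11:837356-837605, lies inside CD151 as well. The 3′ end of POLR2L-202 was not searched for hexamers. In RefSeq, whose transcripts were counted, CD151 ends 889 bases from POLR2L. The sources used here do not state whether strand was used in counting, and where transcripts overlap, reads of the 2 genes could then not be told apart. CD151 itself had 4 counts in all, each of them in control 3. This low count does not tell whether reads of CD151 were counted under POLR2L. RefSeq also lists a pseudogene, POLR2LP1, which had no row in the table, and POLR2L counts are uncertain as far as reads could match it.

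The controls had 2701, 2812 and 3072 POLR2L counts, out of totals of 269057, 259753 and 285248. EA30 had 3021 counts of 490235, EA45 had 947 of 325812 and EA35TMZ320 had 854 of 213566. EA20TMZ380 had 3137 counts of 367291, EA20TMZ580 had 2338 of 330759 and TMZ600 had 2749 of 304336. EA45 and EA35TMZ320 thus stood apart from the other 7 libraries already in the raw counts. By counting error alone the exact 95% Poisson intervals were 888 to 1009 counts in EA45 and 798 to 913 counts in EA35TMZ320.

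The nuclear share of counts, which is the share not on the 13 protein-coding genes of the mitochondrial genome, was lower in every treated library than in every control. It was 51.4, 51.6 and 50.9% in the controls, 48.3% in TMZ600, 45.2% in EA45 and 45.1% in EA35TMZ320. In EA20TMZ380 it was 42.6%, in EA30 41.8% and in EA20TMZ580 41.3%. The 2 libraries with the lowest POLR2L values lay between TMZ600 and the other 3 in nuclear share. As a description over the 9 libraries, log2 CPM of POLR2L (TMM, a scaling explained further on) and the nuclear share had a Pearson r of 0.38 and a Spearman rho of 0.57. Without EA45 and EA35TMZ320, Pearson's r was 0.70 over 7 libraries. The part of the nuclear share in the POLR2L values was not tested.

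In counts per 1000000 of all counts (CPM), POLR2L had 10545 ± 439 (SD, n = 3) in the controls. All 6 treated libraries lay below the lowest control, with 9033 in TMZ600, 8541 in EA20TMZ380, 7069 in EA20TMZ580, 6162 in EA30, 3999 in EA35TMZ320 and 2907 in EA45. Relative to nuclear counts alone the picture was the same for all but EA20TMZ380. The controls had 19548, 20995 and 21160 counts per 1000000 nuclear counts, a mean of 20568 ± 887 (SD, n = 3). EA20TMZ380, with 20028, lay within their range, and the other 5 treated libraries lay below it. The values were 18683 in TMZ600, 17125 in EA20TMZ580, 14727 in EA30, 8871 in EA35TMZ320 and 6429 in EA45. On this scale the control mean was 3.20 times the value of EA45 and 2.32 times that of EA35TMZ320, but 1.40 times that of EA30 and 1.10 times that of TMZ600. POLR2L made up 2.06% ± 0.09 (SD, n = 3) of the nuclear counts in the controls and 0.643% in EA45. These are shares of the listed counts and not of the RNA of the cells, since genes such as VIM were listed at 0. In RNA of whole cultures, less POLR2L RNA per cell and fewer cells that carry it cannot be told apart.

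**Figure D1:**
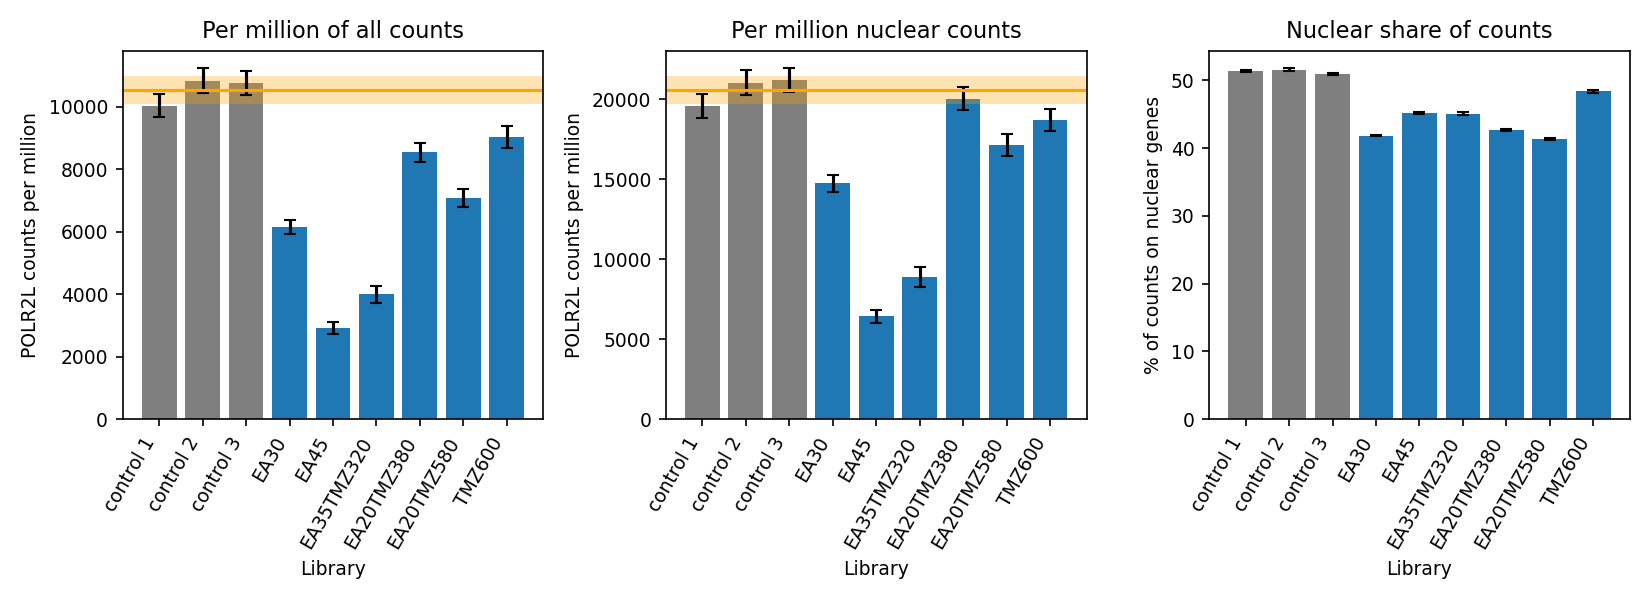
POLR2L counts per 1000000 of all counts and of nuclear counts, and the percentage of counts on nuclear genes, for each of the 9 libraries (controls grey, treated blue). Error bars are 95% counting intervals and the orange line and band are the mean ± SD of the 3 controls; EA45 and EA35TMZ320 are lowest on both POLR2L scales but not in nuclear share.

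For the comparison of treatments the counts of the tested genes were scaled by TMM, a method that takes most genes as unchanged. On this scale, in CPM of the tested genes, the order from highest to lowest began with control 2 (10152), control 3 (10005), EA20TMZ380 (9710) and control 1 (9365). It went on with TMZ600 (8124), EA20TMZ580 (7548), EA30 (6967), EA35TMZ320 (4159) and EA45 (3206). The log2 fold change against the controls was -1.62 in EA45 (standard error 0.15) and -1.24 in EA35TMZ320 (standard error 0.14). It was -0.50 in EA30, -0.38 in EA20TMZ580, -0.28 in TMZ600 and -0.02 in EA20TMZ380, each with a standard error of 0.13. These errors rest on the spread of the controls, since the lone treated libraries were assumed to vary like them. The fit drew this spread more from all tested genes together than from POLR2L itself. In the controls POLR2L log2 CPM had an SD of 0.06.

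Steps between adjacent treated libraries in this order are described beside their standard errors, which again rest on the controls, and were not tested. The log2 difference of EA20TMZ580 from TMZ600 was -0.11 and that of EA30 from EA20TMZ580 was -0.12, both smaller than their standard error of 0.16. TMZ600 differed from EA20TMZ380 by -0.26 (standard error 0.16), with control 1 between them in the full order. The step from EA30 to EA35TMZ320 was larger, with -0.74 (standard error 0.16), and EA45 lay below EA35TMZ320 by a further log2 difference of -0.38 (standard error 0.17).

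All 609 tested genes give the frame for these differences. The median log2 fold change was -0.05 in EA45 and -0.13 in EA35TMZ320, and 64 and 122 genes respectively had a lower value than POLR2L. In EA20TMZ380, 328 genes lay below POLR2L. With the 6 treated libraries taken as 1 group, the POLR2L log2 fold change was -0.57 (standard error 0.29), against a median of 0.03 for all genes. These libraries differ in dose and are not replicates. Without EA45 the value was -0.43 and without EA35TMZ320 it was -0.46.

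**Figure D2:**
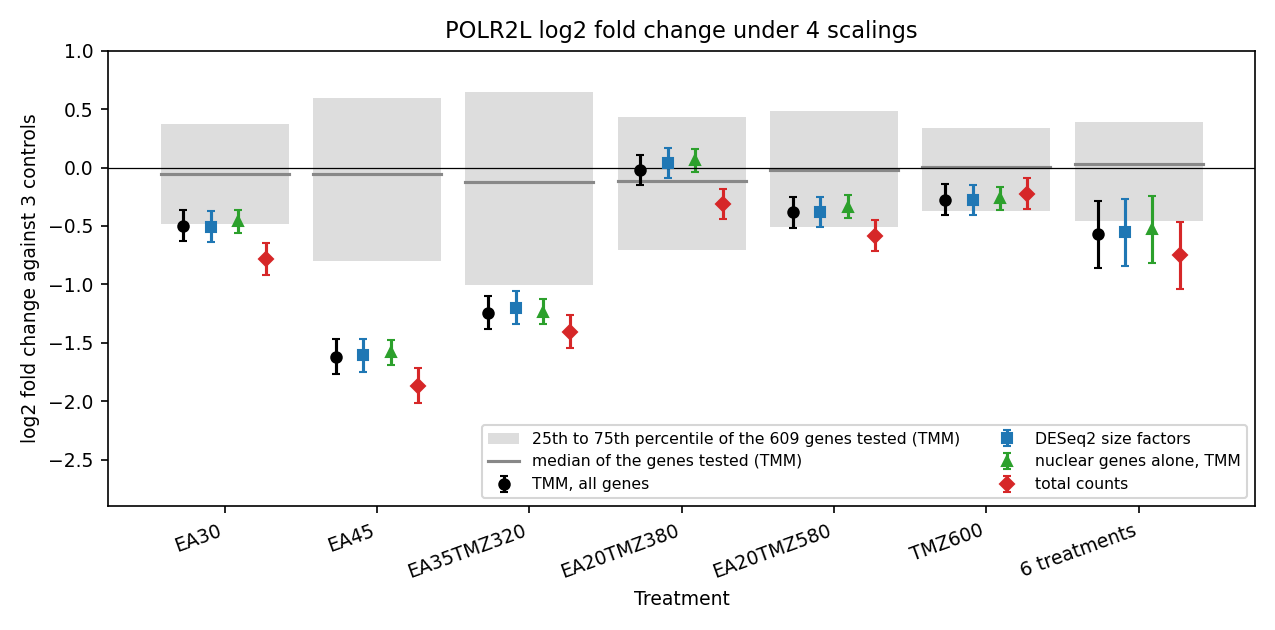
POLR2L log2 fold change against the 3 controls, ± standard error, in each treatment and over the 6 treatments, under 4 ways of scaling. Grey boxes span the 25th to 75th percentile of the 609 tested genes under TMM with their median as a line; POLR2L lies below the box in EA45 and EA35TMZ320 under each scaling, and in EA20TMZ380 it is near 0 except with total counts.

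The libraries were next arranged by dose. Between the 2 libraries with EA alone, POLR2L was lower at 45 µM than at 30 µM by a log2 difference of -1.12 (standard error 0.16). At 20 µM EA it was lower with 580 µM TMZ than with 380 µM TMZ, by -0.36 (standard error 0.16). A fit with both concentrations as additive terms gave a log2 change of -0.29 per 10 µM EA (standard error 0.06) and 0.01 per 100 µM TMZ (standard error 0.04). Without EA45 the EA term was -0.20 (standard error 0.07), and the sign of the TMZ term changed to -0.02. Whether the level followed the EA concentration at its low end depended on the scaling. With TMM, EA20TMZ380 lay among the controls and TMZ600, without EA, lay below them, and with nuclear counts TMZ600 was also below EA20TMZ380. In CPM of all counts the level was lower at each higher EA concentration, with both libraries of 20 µM below TMZ600 and the controls. The libraries with 30, 35 and 45 µM EA had lower levels than both libraries with 20 µM, although the step from EA20TMZ580 to EA30 was smaller than its standard error.

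**Figure D3:**
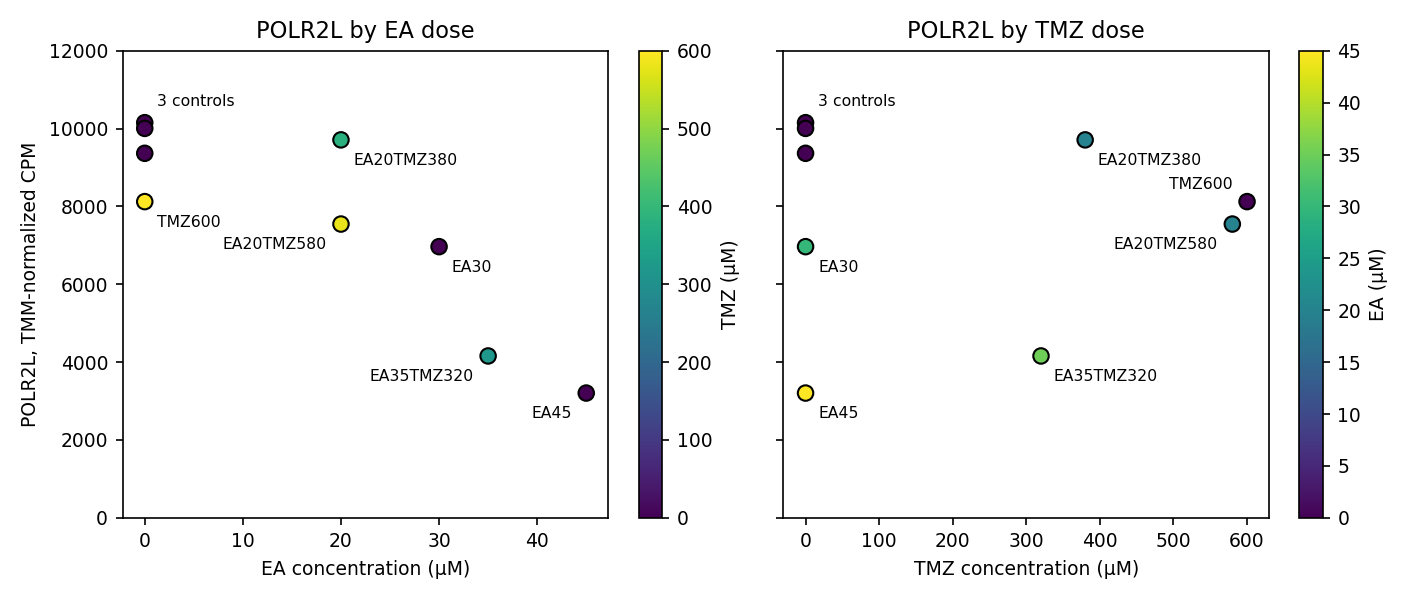
TMM-normalized CPM of POLR2L in each library against the EA concentration in µM (left, colour for TMZ) and the TMZ concentration in µM (right, colour for EA). Each point is 1 library; the 3 libraries with the highest EA concentrations, 30, 35 and 45 µM, have the lowest values.

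The other subunits of the polymerases could hardly be measured. Of 34 subunit genes, 23 had no count, 11 had at least 1 and POLR2L alone reached a mean of 10 counts. Of the 5 subunits shared by the polymerases I, II and III, POLR2F had 1 count in all and POLR2E, POLR2H and POLR2K had 0. Both subunits shared by polymerases I and III were counted, POLR1C with 5 and POLR1D with 1 count. Among 6 polymerase I subunits, POLR1A had 4 and POLR1G 6 counts. Among 10 polymerase II subunits, POLR2D had 1, POLR2J2 had 2 and POLR2A, the largest catalytic subunit, had 36 counts. POLR2A had 0, 7 and 4 counts in the controls, 9 in EA30, 7 in EA45, 3 in EA20TMZ580 and 2 in each of the other treated libraries. Among 11 polymerase III subunits, POLR3E and CRCP had 1 count each. Of 10 factors that assemble the polymerases, GPN1, a GTPase needed to bring polymerase II into the nucleus, had 22 counts and the other 9 were at 0. By counting error alone a count of 0 allows up to 3 counts, which is 6.12 CPM in EA30 and 14.0 CPM in EA35TMZ320. These zeros were not read as absence, because reads not listed under a gene's name are not covered by this limit. Among genes with a symbol and 1 row, 14.4% had a count, against 10.2% of genes with 2 or more rows. POLR2L was 1 of 14 subunit genes with a single row, of which 5 were counted.

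Factors that work with the polymerases were sparse as well, as were the genes of the whole count table. With the 10 assembly factors included, 118 of 139 were at 0 and 4 were tested. Of all genes with a symbol, 14.4% of those with 1 row and 10.2% of those with 2 or more rows were counted. The shares tested were 1.9% and 1.0%. The few factors counted are thus not read as a trait of the transcription genes. Besides the assembly factors, 2 of 23 polymerase I and III factors, 4 of 33 polymerase II initiation factors and 5 of 33 Mediator genes were counted. So were 6 of 31 elongation factors and 3 of 9 genes of mitochondrial transcription. The tested genes were MED10 and MED28, subunits of the Mediator complex that links transcription factors to polymerase II, ELL3, an elongation factor, and MTERF4, which acts in mitochondria. By edgeR's quasi-likelihood test, at an adjusted p (Benjamini-Hochberg) of 0.05, 3 of the 4 passed in EA45, 2 in EA35TMZ320 and 1 in EA20TMZ380. Of all 609 genes, 39.1% passed in EA45, 43.0% in EA35TMZ320 and 26.1% in EA20TMZ380. In EA30, EA20TMZ580, TMZ600 and the 6 treatments as 1 group 0 of the 4 passed with edgeR, DESeq2 or limma-voom. At an unadjusted edgeR p under 0.05 the counts there were 1, 0, 0 and 2. The background in these comparisons was 17.6% in EA30, 24.6% in EA20TMZ580, 9.85% in TMZ600 and 6.40% over the 6 treatments. With 4 genes, these counts give no comparison of the list with the background. The median log2 fold change of the 4 genes was 0.63 in EA35TMZ320, 0.38 in EA20TMZ380, 0.36 in EA45, 0.10 in TMZ600, -0.03 in EA30 and -0.23 in EA20TMZ580.

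MED10 was called higher in EA45 and EA35TMZ320, the libraries with the lowest POLR2L values, and in no other treatment. It had 240, 242 and 242 counts in the controls, 508 in EA45 and 302 in EA35TMZ320. The other treated libraries had 466 (EA30), 330 (EA20TMZ380), 323 (EA20TMZ580) and 355 (TMZ600). On the TMM scale the controls had 831 ± 42.8 CPM (SD, n = 3) and all 6 treated libraries lay above them. MED10 rose in EA45, by a log2 change of 1.05 ± 0.17 (SE) at an edgeR adjusted p of 1.23e-06. The rise in EA35TMZ320 was 0.82 ± 0.18 (SE), with an edgeR adjusted p of 0.000146. MED28 had 339, 264 and 281 counts in the controls, 452 in EA45, 324 in EA35TMZ320, 510 in EA20TMZ380 and 294 to 487 in the other 3. Its log2 fold change was 0.59 in EA45 (edgeR adjusted p = 0.00537), 0.64 in EA35TMZ320 (edgeR adjusted p = 0.00314) and 0.64 in EA20TMZ380 (edgeR adjusted p = 0.00413). None of these 3 passed with DESeq2, and with total counts in place of TMM only that in EA35TMZ320 did, which in turn was lost in the unfiltered fit (edgeR adjusted p = 0.0595). ELL3 had 29, 10 and 27 counts in the controls, 5 in EA45 and 5 to 18 in the others. The log2 fold change of ELL3 in EA45 was -2.12 (standard error 0.77). Its call in the main fit was lost without control 1, without control 3, without the filter, with limma-voom and with DESeq2. MTERF4 passed in no comparison with edgeR, with control counts of 73, 64 and 58 and treated counts of 54 to 100.

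POLR2L lies in a stretch of the short arm of chromosome 11 in which 10 counted genes on each side were examined. Of these 20 genes 5 were tested. On the side of lower coordinates, RPLP2 (26.8 kb away), an acidic ribosomal protein, had 9195, 8517 and 9088 counts in the controls against 7007 to 13031 after treatment. It passed in no comparison in the main fit, with TMM over all genes. Alternatives gave it 9 calls over 6 comparisons, among them the following with other scalings. With nuclear genes alone RPLP2 was called higher in EA45 (edgeR adjusted p = 0.00565), EA35TMZ320 (edgeR adjusted p = 0.0226) and EA20TMZ380 (edgeR adjusted p = 7.02e-06), and lower in TMZ600 (edgeR adjusted p = 0.0241). With total counts it was called lower in EA30 (edgeR adjusted p = 0.0234) and EA20TMZ580 (edgeR adjusted p = 0.00915). CEND1 (49.6 kb away), known for cell cycle exit in neurons, had 191, 142 and 174 counts in the controls, 66 in EA45, 22 in EA35TMZ320 and 119 to 189 in the other treated libraries. CEND1 fell in EA45, its log2 change being -1.38 ± 0.26 (SE) at an edgeR adjusted p of 1.49e-05. It also fell in EA35TMZ320, with -2.43 ± 0.32 (SE) at an edgeR adjusted p of 6.23e-09. The -0.66 of EA20TMZ380 came with an edgeR adjusted p of 0.032, which missed the threshold under 8 alternatives, among them the fits without control 1 (0.078), without control 2 (0.0604) and with DESeq2 (0.424). TALDO1 (74.7 kb away), an enzyme of the pentose phosphate pathway, was called higher in all 5 treatments with EA, among them EA20TMZ380, where POLR2L was near the controls. It had 678, 571 and 555 counts in the controls, 1945 in EA30, 1663 in EA45 and 1577 in EA20TMZ380. EA20TMZ580 had 1108, EA35TMZ320 had 994 and TMZ600 had 720 counts. Its log2 change was 1.44 in EA45 (standard error 0.14, edgeR adjusted p = 5.53e-12), 1.22 in EA35TMZ320 (edgeR adjusted p = 9.98e-10) and 1.24 in EA20TMZ380 (edgeR adjusted p = 1.21e-09). In EA30 it was 1.11 (edgeR adjusted p = 2.54e-08), in EA20TMZ580 0.79 (edgeR adjusted p = 4.64e-05) and in TMZ600 0.04 (edgeR adjusted p = 0.906). MIR210HG (271 kb away), the host transcript of a hypoxia-linked microRNA, had 160, 182 and 203 counts in the controls, 1 to 35 after treatment, and passed in all 6 treatments. On the other side, where the nearest counted gene was CTSD (910 kb away), the tested gene was the noncoding KCNQ1OT1. It passed in EA30 alone with edgeR, with 130 counts there and 28, 29 and 21 in the controls, but not with DESeq2 (adjusted p = 0.2). Under TMM over all genes, 1 of the 5 neighbours rose and 2 fell in EA45, EA35TMZ320 and EA20TMZ380 alike. In EA30 2 rose and 1 fell, in EA20TMZ580 1 rose and 1 fell, and in TMZ600 1 fell. Over the 6 treatments 1 rose and 1 fell, and the rise, of TALDO1, was lost under 7 alternatives. The share of all 609 genes that passed was 39.1% in EA45, 43.0% in EA35TMZ320 and 26.1% in EA20TMZ380. It was 17.6% in EA30, 24.6% in EA20TMZ580, 9.85% in TMZ600 and 6.40% over the 6 treatments. With 5 genes nothing is read from these counts about the neighbours. The gene next to POLR2L on that side, TSPAN4, was listed at 0.

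**Figure D4:**
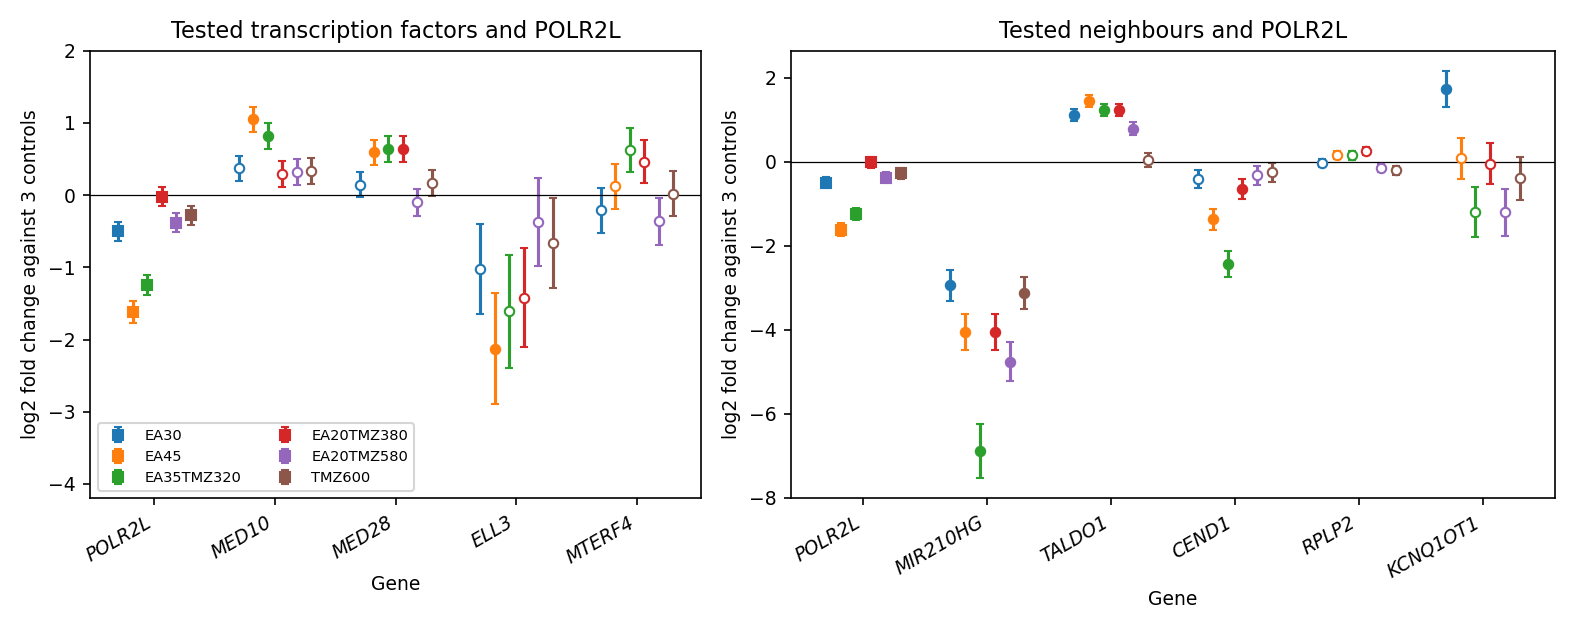
Log2 fold change against the 3 controls, ± standard error, in the 6 treatments, beside POLR2L. The left panel has the tested transcription genes MED10, MED28, ELL3 and MTERF4, and the right panel the tested neighbours. Filled circles passed edgeR's adjusted p of 0.05, open circles did not, and POLR2L (squares) is shown without a call; MED10 and TALDO1 lie above 0 in EA45 where POLR2L and CEND1 lie below.

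The genes with a pattern most like POLR2L were sought among 311 genes with a mean of at least 50 counts, by Pearson's r of log2 CPM over the 9 libraries. The r values are a description over these 9 libraries, of which 3 are controls. The median r over these genes was -0.02. The 5 highest values belonged to SNHG14 (0.95), ALOX12B (0.95), CMBL (0.95), VOPP1 (0.94) and UPF3A (0.92). SNHG14 is a noncoding host of small nucleolar RNAs, ALOX12B a lipoxygenase and CMBL a hydrolase. VOPP1 is known for amplification together with EGFR in glioma, and UPF3A acts in nonsense-mediated decay of messenger RNA. CMBL had 291, 265 and 334 counts in the controls, 106 in EA45, 65 in EA35TMZ320 and 233 to 334 in the other treated libraries. UPF3A had 403, 362 and 477 counts in the controls, 153 in EA45, 124 in EA35TMZ320 and 275 to 430 in the others. ALOX12B had 137, 81 and 106 counts in the controls, 13 in EA45, 11 in EA35TMZ320 and 79 to 117 in the others. The likeness was weaker without these 2 libraries: over the other 7, r was 0.67 for SNHG14, 0.47 for ALOX12B, 0.73 for CMBL, 0.69 for VOPP1 and 0.80 for UPF3A.

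The 3 lowest values belonged to PUM3 (-0.96), a nucleolar RNA-binding protein, NCR3LG1 (-0.96), a ligand of an activating receptor of natural killer cells, and MED10 (-0.96). PUM3 had 486, 401 and 468 counts in the controls, 825 in EA45 and 522 in EA35TMZ320. On the TMM scale this was 1552 ± 121 CPM (SD, n = 3) in the controls, 2793 in EA45, 2542 in EA35TMZ320 and 1430 to 2057 in the other treated libraries. NCR3LG1 had 165 ± 28.9 CPM (SD, n = 3) in the controls, 525 in EA45, 429 in EA35TMZ320 and 174 to 295 in the others. Over the other 7 libraries r was -0.85 for PUM3, -0.79 for NCR3LG1 and -0.77 for MED10.

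**Figure D5:**
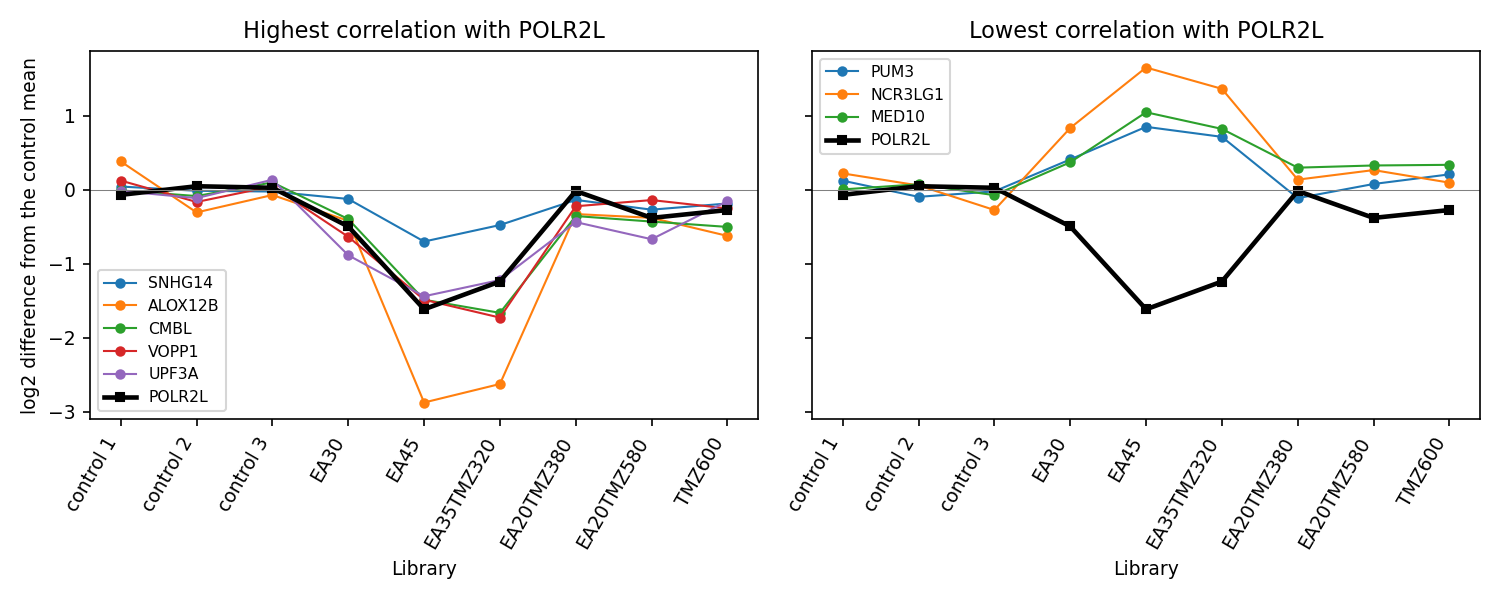
Log2 difference of TMM-normalized CPM from the mean of the 3 controls in each library, for POLR2L (black) with the 5 genes of highest (left) and the 3 of lowest (right) correlation with it. Lines only join the values of 1 gene; EA45 and EA35TMZ320 hold the lowest values of POLR2L and the highest of PUM3, NCR3LG1 and MED10.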

How the data were processed

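The authors deposited counts of 3′ end reads per RefSeq transcript for the 9 libraries, without normalization. The submitters' processing notes name HISAT2, HTSeq and hg38, and the versions, strand setting and annotation release are not given in the sources used here. Rows were summed by gene symbol through RefSeq (GRCh38.p14), and symbols were found for 57755 rows by versioned identifier and for 56301 without version. The 45011 unmatched rows held 4.63% of counts and were kept under their identifiers. Genes with a mean of at least 10 counts were fitted with edgeR 4.0.16 (R 4.3.3; TMM, quasi-likelihood test, Benjamini-Hochberg adjustment, threshold 0.05) with 1 coefficient per condition, with the 6 treatments as 1 group, and with EA and TMZ concentrations. The procedure was tested on simulated data. Correlations used log2 CPM with a prior count of 2. Libraries held 213566 to 490235 counts, and intervals (Wilson for shares, exact Poisson for counts, 95%) and the limit of 3 counts for a 0 cover counting error only. For pairs of controls, chi-square over its degrees of freedom was 3.12 to 4.70, more than counting error gives. Alternatives were DESeq2 1.42.0, limma-voom 3.58.1, other scalings and filters, transcript rows, and fits without single libraries. Named genes were POLR2L, listed transcription genes that were tested, counted subunit and assembly genes, the 5 genes of highest and 3 of lowest correlation among those averaging 50 counts or more, and the 10 nearest counted genes on each side. The gene, the lists and the rules were chosen with earlier results of these data known.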

Additional observations from a re-analysis of the deposited data

How the results depend on the processing

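The POLR2L log2 fold change kept its sign under all alternatives in TMZ600, EA20TMZ580, EA35TMZ320, EA45, EA30 and over the 6 treatments. In EA20TMZ380, near 0, it turned positive with DESeq2 size factors (0.039), nuclear genes alone (0.063), DESeq2's Wald test (0.039) and a fit of that library and the controls alone (0.093). Leaving out 1 control gave -0.060 to 0.0032, the latter without control 2. Total counts without TMM took the median of all genes in EA20TMZ380 from -0.12 to -0.41, and POLR2L to -1.87 in EA45, -1.41 in EA35TMZ320, -0.78 in EA30, -0.58 in EA20TMZ580, -0.31 in EA20TMZ380, -0.75 over the 6 treatments and -0.36 per 10 µM EA. Without a filter EA35TMZ320 had -1.34. With a mean of at least 50 counts EA45 had -1.70 and EA20TMZ380 -0.10. The value over the 6 treatments was -0.66 with limma-voom, and -0.71 to -0.43 without 1 library. Without 1 library the EA term was -0.33 to -0.20 and the TMZ term -0.018 to 0.051.

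DESeq2's Wald test called 149 genes in EA35TMZ320 (edgeR 262), 111 in EA45 (238), 61 in EA20TMZ380 (159), 54 in EA20TMZ580 (150), 41 in EA30 (107), 24 in TMZ600 (60) and 89 over the 6 treatments (39). Without a filter 101 were called in EA20TMZ380 and 94 in EA20TMZ580, with more genes tested. Without 1 control 99 to 164 genes were called in EA20TMZ580 and 33 to 78 in TMZ600, lowest without control 2. Over the 6 treatments 11 to 64 were called without 1 library: 11, 12 and 14 without control 1, 2 or 3, and 64 without TMZ600. With total counts the share of higher genes among those called went from 50.5 to 18.7% in EA30, 50.8 to 34.5% in EA45, 45.3 to 19.9% in EA20TMZ380, 50.7 to 27.6% in EA20TMZ580 and 43.6 to 24.5% over the 6 treatments. It went from 45.0 to 38.5% in EA35TMZ320 and, the other way, from 43.3 to 52.9% in TMZ600. Causes were not tested. No paired analysis was possible because the treatments have 1 library each.

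For the other tested transcription genes and neighbours, 261 alternative values belonged to results called at first, of which 234 kept the call and 27 lost it, with 0 changes of sign. Another 457 belonged to results not called, of which 11 gained a call and 26 changed sign. The gains were 9 of RPLP2, in all 6 treatments, 1 of CEND1 (EA30, edgeR adjusted p = 0.0184 with total counts) and 1 of ELL3 (EA20TMZ380, edgeR adjusted p = 0.0499 with total counts). The changed signs were as follows. With DESeq2 size factors KCNQ1OT1 had 0.0063 in EA20TMZ380. With nuclear genes alone RPLP2 had 0.0060 in EA30 and KCNQ1OT1 0.032 in EA20TMZ380. With total counts MED28 had -0.14 in EA30, MTERF4 -0.13, RPLP2 -0.092 and KCNQ1OT1 -0.17 in EA45, and RPLP2 -0.012 in EA35TMZ320 and -0.045 in EA20TMZ380. Over the 6 treatments total counts gave -0.041 for MTERF4 and -0.16 for RPLP2, and limma-voom -0.021 for KCNQ1OT1. RPLP2 in EA30 had 0.014 without a filter, 0.00054 with a mean of 50 counts or more and 0.018 in the fit with controls alone. At that higher filter TMZ600 gave -0.017 for MTERF4 and -0.00085 for TALDO1. KCNQ1OT1 in EA20TMZ380 had 0.064 with controls alone. Without 1 library the ranges were -0.098 to 0.20 for KCNQ1OT1 in EA45, -0.23 to 0.070 in EA20TMZ380 and -0.46 to 0.46 over the 6 treatments (-0.46 without EA30). They were -0.17 to 0.019 for MED28 in EA20TMZ580, -0.095 to 0.11 for MTERF4 and -0.058 to 0.13 for TALDO1 in TMZ600, and -0.0056 to 0.12 for RPLP2 over the 6 treatments.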

Other observations

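TAF10, a subunit of the polymerase II initiation factor TFIID, was singled out after its values were seen and, with a mean of 5.89 counts, was not tested. It had 8, 8 and 9 counts in the controls and 12 in EA30, 9 in EA20TMZ580, 4 in TMZ600 and 3 in EA20TMZ380. In EA45 and EA35TMZ320, the libraries with the lowest POLR2L values, it was listed at 0. A 0 allows up to 3 counts by counting error alone. These few counts were not tested and no fold is given, and TAF4, another subunit of the same factor, had 9, 6 and 3 counts in the controls, 5 in EA45 and 0 in EA35TMZ320.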
